A study of Mus musculus with 4 samples.

Results

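The cell cycle genes described here are 60 replication and mitosis genes, taken by symbol from the gene table shared by all 4 libraries, where they stand among 28694 genes. All 60 were found in every library. They fall into 20 genes of DNA replication, 7 of histones and chromatin, 13 of mitotic control and 20 of chromosomes and the spindle. Single-cell RNA was measured in 2 libraries of distal colon (DC) and in 2 of the stretch of small intestine labelled as its 8th section (Si8). The mice in every library were of the RedMUC298trTg strain, aged 6 to 8 weeks, and carry a goblet cell reporter with the red fluorescent protein mCherry. Live epithelial cells were sorted on mCherry, with a C57Bl6 mouse as the negative control. Whether both mCherry-positive and mCherry-negative cells were loaded, and how many mice contributed to a library, was not found in the labels, so p-values measure the spread between these libraries alone.

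A dividing cell first copies its DNA, with the MCM complex as the helicase and Pcna as the clamp that holds the polymerase, while histone genes are transcribed to package the copy. It then switches to the mitotic genes: cyclin B with Cdk1 drives entry into mitosis, the Aurora and Polo kinases build the spindle, and Cdc20 and Ube2c work with the anaphase-promoting complex to end it. In the intestine, division is confined to the crypt, where the transcription factor Atoh1 commits progenitors to the secretory lineage. Muc2 is the gel-forming mucin of goblet cells, and Muc3 is a membrane-anchored mucin of the brush border.

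The promoters of the mitotic and the replication members differed in the short motifs searched here. RefSeq promoters of GRCm38.p6, from 250 bases before to 50 after the start, were found for 46 members. The motifs CCAAT and TTTGAA (known as the CCAAT box and the cell cycle homology region, or CHR) and the E2F motifs TTTCCCGC and TTTGGCGC were searched on both strands, and none of these letters overlap in the promoters shown. Below are Cdk1 at chr10:69352863-69353162 (minus strand), Plk1 at chr7:122159185-122159484 (plus strand) and Mcm3 at chr1:20820263-20820562 (minus strand). They were chosen as 2 mitotic kinases and 1 helicase subunit, and capitals mark the matches.
Cdk1: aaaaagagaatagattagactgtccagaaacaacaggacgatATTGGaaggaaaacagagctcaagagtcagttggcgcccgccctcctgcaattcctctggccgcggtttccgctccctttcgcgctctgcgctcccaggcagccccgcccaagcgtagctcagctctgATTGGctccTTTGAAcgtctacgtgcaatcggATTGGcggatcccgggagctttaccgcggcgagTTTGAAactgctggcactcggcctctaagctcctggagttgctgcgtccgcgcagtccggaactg
Plk1: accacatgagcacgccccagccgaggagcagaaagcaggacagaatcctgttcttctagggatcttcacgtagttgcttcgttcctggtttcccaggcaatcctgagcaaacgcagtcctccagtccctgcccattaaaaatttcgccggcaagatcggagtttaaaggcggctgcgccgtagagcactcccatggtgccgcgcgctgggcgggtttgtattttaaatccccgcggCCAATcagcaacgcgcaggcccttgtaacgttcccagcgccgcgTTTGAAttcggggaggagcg
Mcm3: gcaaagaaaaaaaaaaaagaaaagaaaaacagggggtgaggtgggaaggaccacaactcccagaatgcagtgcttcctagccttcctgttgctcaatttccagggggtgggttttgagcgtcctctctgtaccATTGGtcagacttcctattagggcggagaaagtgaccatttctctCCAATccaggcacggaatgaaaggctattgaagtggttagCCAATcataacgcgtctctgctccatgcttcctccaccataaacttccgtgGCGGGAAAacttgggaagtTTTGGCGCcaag
CCAAT was present in 34 of the 46 member promoters (73.9%), against 37.4% of all 32851 promoters. It was in 11 of 11 mitotic control promoters and 8 of 16 replication promoters (50%). TTTGAA was in 24 of 46 (52.2%), against 17.9% of all promoters, and the members with it were mostly mitotic: 8 of 11 in mitotic control and 13 of 17 in chromosome and spindle, against 2 of 16 in replication. TTTCCCGC or TTTGGCGC was in 6 of 46 (13%), against 1.56% of all promoters, and the 6 were replication genes: Cdt1, Hells, Mcm3, Mcm5, Mcm6 and Mcm7. Other forms of the E2F site were not searched, so promoters without these letters may still hold one. These shares describe letters in a window, with no test.

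The 4 libraries held 10827 barcodes with 26075303 to 66880457 UMIs (unique molecular identifiers, each a counted RNA molecule), and 10243 cells were kept. Clustering that used none of the members gave 10 clusters. Of these, 5 were goblet-like (5927 cells), 2 were cycling-like (clusters 1 and 8, 2534 cells), 1 was Paneth-like and 1 enteroendocrine-like. Cluster 2 (1667 cells) stayed unnamed and was led by the absorptive genes Car4, Slc26a3 and Fabp6, beside Gsdmc4 and Gsdmc2. Muc2 was also counted in its cells, at levels given below, so whether the label "Goblet cells" covers them was not tested. Goblet-like cluster 3 is the least certain of the 5: its first 10 genes held 1 goblet marker, Ccl9, beside the plasma cell transcripts Igkc, Igha and Jchain, and counts in goblet-like cells are also given without it. Libraries shared 1 to 16 barcodes per pair. The second DC library stood apart in size, with 4724 of the kept cells. The first Si8 library stood apart in its cells: cycling-like clusters made up 24.2% and 26.8% of the kept cells of DC 1 and DC 2, against 11.9% and 29.3% of those of Si8 1 and Si8 2. Results are therefore also given without Si8 1.

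Over all cells, the program as a whole was not told apart between DC and Si8. The summed level of the 20 replication genes was 506 and 669 CPM (UMIs scaled to a common total per library) in DC 1 and 2, against 254 and 539 CPM in Si8 1 and 2. The 7 histone and chromatin genes summed to 2190 and 1680 CPM in DC, against 1010 and 1660 CPM in Si8. In each sum the lowest library was Si8 1, and Si8 2 lay close to or within the DC range. Mitotic control genes summed to 805 and 645 CPM in DC, against 332 and 588 CPM in Si8. Chromosome and spindle genes summed to 1330 and 1200 CPM in DC, against 511 and 1010 CPM in Si8. In both mitotic sums, too, the gap between the 2 Si8 libraries was larger than that between Si8 2 and the nearer DC library. In a sum over all cells, fewer dividing cells and less RNA per dividing cell cannot be told apart.

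Of the 60 members, all of which passed the filter on low counts, none was higher and 1 was lower in DC over all cells, by edgeR's quasi-likelihood test with Benjamini-Hochberg adjustment at 0.05. Across all 13081 genes tested, 24.7% were called, 12.9% higher and 11.9% lower. The members' median log2 fold change, DC over Si8, was 0.17, against 0.04 for the whole table. Folds carry TMM scaling, and with library totals alone the table's median became 0.45. With that scaling 4147 of all 13081 genes were called higher and 998 lower, and of the members 12 were called higher and none lower. The count was 0 higher and 2 lower without Si8 1, 27 higher and 1 lower without Si8 2, and 0 without DC 1. An unadjusted p below 0.05 was reached by 2 members, and DESeq2 called 1 higher and 1 lower.

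**Figure D1:**
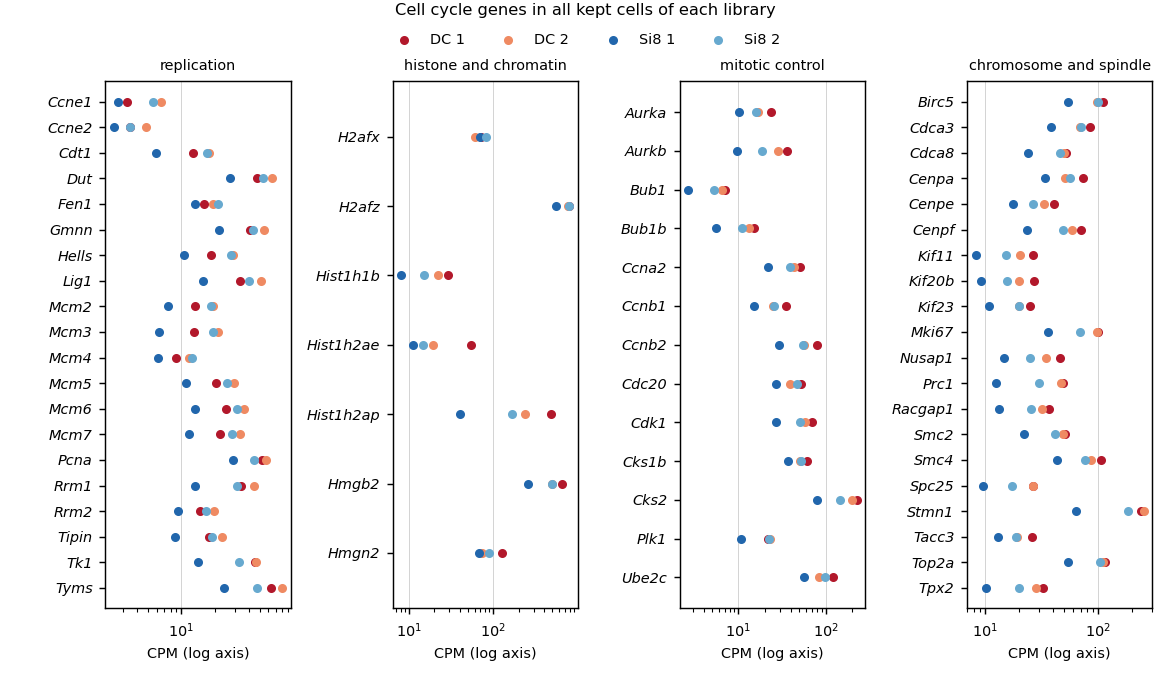
Level of each of the 60 members over all kept cells, in CPM on a log axis, with 1 point per library and 1 panel per role. Si8 1 is the lowest point for most genes, while Si8 2 lies near the DC libraries; Mki67, for example, had 98.8 and 97.2 CPM in DC, against 35.7 and 69.3 CPM in Si8.

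Among the replication genes, Pcna had 52.8 and 57.3 CPM in DC 1 and 2, against 29.1 and 44.4 CPM in Si8 1 and 2, which gives 0.18 ± 0.20 (log2 fold change ± SE, adjusted p = 0.575, edgeR). Mcm2, a subunit of the MCM helicase, had 13.2 and 19 CPM in DC, against 7.63 and 18.3 CPM in Si8, which gives -0.09 ± 0.40 (adjusted p = 0.893, edgeR). Mcm2 overlapped between the tissues, and for Pcna the tissues stayed apart by less than the gap between the Si8 libraries. Mcm3, whose promoter is shown above, had 13 and 21.2 CPM in DC, against 6.25 and 19.3 CPM in Si8. The replication genes had a median log2 fold change of 0.05.

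Among the mitotic control genes, Cdk1 had 69.2 and 58.6 CPM in DC, against 27.2 and 51.3 CPM in Si8, which gives 0.30 ± 0.28 (adjusted p = 0.485, edgeR). Ccnb1, the cyclin that activates Cdk1, had 35.4 and 25.0 CPM in DC, against 15.3 and 25.9 CPM in Si8 (log2 fold change 0.14 ± 0.27, adjusted p = 0.749, edgeR). Plk1 had 22.1 and 23.0 CPM in DC, against 10.7 and 22.3 CPM in Si8. For all 3 genes the low library was Si8 1. Aurkb, the catalytic kinase of the chromosomal passenger complex, had 36.5 and 28.4 CPM in DC, against 9.67 and 18.5 CPM in Si8. Its groups did not overlap and its log2 fold change of 0.79 had the lowest p of the mitotic genes, yet it did not pass (adjusted p = 0.11, edgeR).

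Among the chromosome and spindle genes, Mki67, which coats mitotic chromosomes, had a log2 fold change of 0.50 ± 0.28 (adjusted p = 0.262, edgeR) on the levels given beside the plot of members by library. Top2a, the topoisomerase that untangles sister chromatids, had 114 and 109 CPM in DC, against 53.5 and 103 CPM in Si8 (0.10 ± 0.28, adjusted p = 0.823, edgeR). Without Si8 1, the log2 fold change of Mki67 was 0.15, and those of Top2a, Pcna, Ccnb1 and Cdk1 took the opposite sign, at -0.24, -0.04, -0.14 and -0.03. None of them passed in either fit. The group of 20 had a median log2 fold change of 0.36.

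The 1 member called over all cells was H2afx (chromosome 9, 44334694 to 44336077, plus strand, GRCm38), the histone variant that is phosphorylated at DNA breaks. It had 71.7 and 61.5 CPM in DC, against 69.2 and 81.3 CPM in Si8. In CPM the groups overlapped, and the call rests on TMM scaling: the log2 fold change was -0.59 ± 0.15 (adjusted p = 0.0388, edgeR) and -0.64 without Si8 1. It did not pass without DC 1 (-0.69), without DC 2 (-0.49) or with totals alone (-0.18). Of 34 further replication genes and 42 further mitosis genes, none was called over all cells, while 4 and 8 of them had an unadjusted p below 0.05.

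In goblet-like cells, where levels of most members were low, 3 members were higher and 3 lower in DC, of 60 tested. There 41.5% of 11972 genes were called, 20% higher and 21.5% lower. The mitotic control sum was 149 and 162 CPM in DC, against 63.4 and 118 CPM in Si8. Tyms, which makes thymidylate for DNA synthesis, had 27.8 and 33.5 CPM in DC goblet-like cells, against 6.97 and 13 CPM in those of Si8 (log2 fold change 1.09 ± 0.28, adjusted p = 0.023, edgeR). Both DC libraries lay above both Si8 libraries. Rrm1, the large subunit of ribonucleotide reductase, had 7.05 and 9.4 CPM in DC, against 1.54 and 3.52 CPM in Si8 (1.17 ± 0.38, adjusted p = 0.0483, edgeR). Aurkb had 6.91 and 5.98 CPM in DC, against 0.971 and 1.42 CPM in Si8, and rose by 1.89 ± 0.27 on the log2 scale (adjusted p = 0.00276, edgeR). Without Si8 1 the changes in Aurkb and Tyms still passed, at 1.64 and 0.70, and Rrm1 did not (0.70, adjusted p = 0.0908, edgeR). Rrm1 also failed without DC 1 (1.35) or DC 2 (0.92), and Tyms without DC 2 (0.94).

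The members that were lower in DC goblet-like cells were H2afx, Fen1 and Cks1b. H2afx had 26.7 and 24.3 CPM in DC, against 56.6 and 55.6 CPM in Si8, and fell by 1.66 ± 0.10 on the log2 scale (adjusted p = 0.000141, edgeR). The 2 libraries of each tissue lay close together and far from the other tissue, and without Si8 1 the value was again -1.66. Fen1, the flap endonuclease of Okazaki fragments, had 5.07 and 6.29 CPM in DC, against 5.83 and 7.26 CPM in Si8 (-0.71 ± 0.21, adjusted p = 0.0371, edgeR). Cks1b, a small subunit of cyclin-dependent kinases, had 18.5 and 15.3 CPM in DC, against 15 and 19.3 CPM in Si8 (-0.55 ± 0.17, adjusted p = 0.045, edgeR). In CPM the tissues overlapped for Fen1 and Cks1b, so those calls rest on the TMM scaling. With totals alone Fen1 had -0.20 and Cks1b -0.03, and neither gene passed without DC 1, without DC 2 or without Si8 2.

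The classic proliferation markers did not pass in goblet-like cells. Top2a had 5.22 and 10.4 CPM in DC, against 9.48 and 12.8 CPM in Si8, and its fold was -1.0 ± 0.33 on the log2 scale (adjusted p = 0.0514, edgeR). Pcna had 31.4 and 28.5 CPM in DC, against 13.9 and 18.0 CPM in Si8 (0.38 ± 0.16, adjusted p = 0.0951, edgeR). For Top2a the groups overlapped; for Pcna they did not. Mki67 had 9.7 and 13.4 CPM in DC, against 6.11 and 10.6 CPM in Si8. Its log2 fold change was -0.04, as was that of Cdk1, while Mcm2 and Ccnb1 had 0.46 and -0.19, all with adjusted p above the threshold in edgeR. With totals alone 6380 of all 11972 genes were called higher and 1231 lower, and of the members 19 were higher and 1 lower. Without cluster 3 the count was 5 higher and 2 lower, with Fen1 at -0.13 and no longer called. Dissociation stress genes summed to 16000 and 11500 CPM in DC goblet-like cells, against 7530 and 6600 CPM in those of Si8, with 2 of 13 called, both higher. Paneth markers summed to 1250 and 1440 CPM in DC, against 8240 and 10100 CPM in Si8, and enteroendocrine markers to 16.6 and 24.2 CPM, against 883 and 646 CPM. Their part in the members' values was not tested.

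Of the cycle regulators outside the 60, 4 were higher and 9 lower of 32 tested in goblet-like cells, a share close to that of all genes. Cdkn2b, an inhibitor of Cdk4 and Cdk6, fell by 2.21 on the log2 scale in DC (adjusted p = 8.55e-05, edgeR). E2f2 fell by 1.90 and Myc, which drives growth and division, rose by 1.77. Of the further mitosis genes, 1 was higher (Pttg1, securin, 1.07) and 2 were lower, among them the phosphatase gene Cdc25b (-2.50), of 39 tested. Of the further replication genes, 4 were higher and 1 lower of 33 tested. Prim1, the catalytic primase subunit, changed by 1.74 and Mcm10, a replication initiation factor, by -1.66. In Muc2-high cells, gated on at least 5 UMIs of Muc2 in 5000, none of the members was higher and 1 was lower, where 29.5% of 12755 genes were called (14.9% higher, 14.5% lower). It was again H2afx, with 52.8 and 48.6 CPM in DC, against 67.1 and 77.2 CPM in Si8 (-0.92 ± 0.13, adjusted p = 0.00399, edgeR; -0.86 and not past the threshold without DC 2). Only H2afx had an unadjusted p below 0.05 there. With totals alone 4571 of all 12755 genes were called higher and 1103 lower, and of the members 3 were higher and 1 lower.

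In cycling-like cells, 8 members were higher and none lower in DC, of 60 tested. Of 11932 genes, 15.2% were called higher and 12.3% lower, 27.5% in all, so the members' share of higher calls was close to that of all genes. The 8 were Tk1, the histone genes Hist1h1b and Hist1h2ap, Aurkb, Mki67, Tpx2, Spc25 and Prc1. Prc1, which bundles the microtubules of the central spindle (chromosome 7, 80294450 to 80316259, plus strand), had 135 and 118 CPM in DC, against 66.5 and 80.9 CPM in Si8. Its log2 fold change was 0.68 ± 0.15 (adjusted p = 0.00983, edgeR), and both DC libraries lay above both Si8 libraries. Spc25, a subunit of the Ndc80 complex at the kinetochore, had 69.0 and 62.5 CPM in DC, against 44.8 and 43.4 CPM in Si8 (0.49 ± 0.13, adjusted p = 0.0218, edgeR). Aurkb had 91.8 and 66.6 CPM in DC, against 51.3 and 50.1 CPM in Si8 (0.55 ± 0.17, adjusted p = 0.0367, edgeR). For both genes the tissues did not overlap.

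Mki67 had 259 and 240 CPM in DC cycling-like cells, against 169 and 178 CPM in those of Si8 (0.44 ± 0.13, adjusted p = 0.0397, edgeR). Tk1, the thymidine kinase of the salvage pathway, had 117 and 115 CPM in DC, against 73.0 and 85.8 CPM in Si8 (0.45 ± 0.14, adjusted p = 0.0417, edgeR). Tpx2, which activates Aurora A on the spindle, had 84.6 and 69.6 CPM in DC, against 53.8 and 51.8 CPM in Si8. In all 3 the groups stayed apart. Hist1h1b, a linker histone, had 82.3 and 56.0 CPM in DC, against 39.9 and 41.0 CPM in Si8 (0.67 ± 0.18, adjusted p = 0.0241, edgeR). Hist1h2ap had 1330 and 624 CPM in DC, against 208 and 454 CPM in Si8 (1.46 ± 0.40, adjusted p = 0.0261, edgeR). Its spread within each tissue was the widest of the 8. Near-identical H2A genes could share its reads, and replication histone mRNA largely lacks the poly-A tail that the assay captures, so its level is uncertain.

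Most members did not pass in cycling-like cells. Top2a had 311 and 274 CPM in DC, against 260 and 272 CPM in Si8 (0.05). Pcna had 96.9 and 107 CPM in DC, against 97.2 and 93.4 CPM in Si8 (0.01), and Plk1 had 60.1 and 57.6 CPM in DC, against 58.0 and 58.9 CPM in Si8 (-0.08). Values of Pcna and Plk1 were intermingled between the tissues, and both DC values of Top2a lay above both of Si8. Cdk1 had 182 and 142 CPM in DC, against 134 and 133 CPM in Si8 (0.19). H2afx had 158 and 129 CPM in DC cycling-like cells, against 156 and 150 CPM in those of Si8, and was not called there (-0.18, adjusted p = 0.388, edgeR). The medians by role were -0.14 for replication, 0.06 for histones and chromatin, 0.09 for mitotic control and 0.26 for chromosome and spindle. Without Si8 1 none of the 8 passed and none of the 60 did, although Prc1 had 0.54, Aurkb 0.55 and Mki67 0.38 in that fit. Without DC 1 or without Si8 2 the count was 3, and without DC 2 it was 11 higher and 6 lower. DESeq2 called 5 members, and with every cell thinned to 5000 UMIs edgeR called 2.

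**Figure D2:**
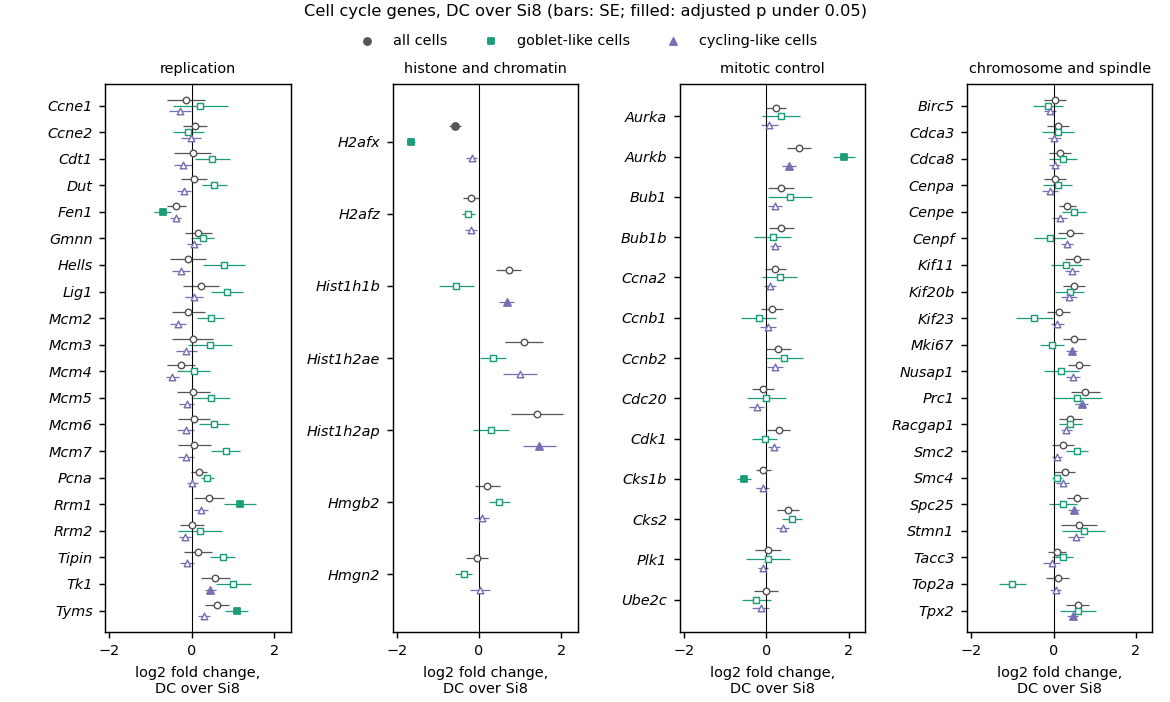
Log2 fold change, DC over Si8, of each member in all cells, goblet-like cells and cycling-like cells, with bars of 1 SE and filled symbols for an adjusted p under 0.05 (edgeR). Filled symbols are few: 1 of 60 members in all cells, 6 in goblet-like cells and 8 in cycling-like cells, and H2afx lies far to the left in goblet-like cells.

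Of the further mitosis genes, 9 were higher and none lower of 42 tested in cycling-like cells. Anln, which scaffolds the contractile ring, and Cenpm, a centromere protein, had log2 fold changes of 0.82 each. Of the further replication genes, none was higher and 2 were lower of 34. These were Cdc7, the kinase that fires origins (-0.71), and Mcm10 (-0.67). Cycle regulators split, with 6 higher and 5 lower of 33. Ccnd1, cyclin D1, had 49.7 and 66.7 CPM in DC cycling-like cells, against 213 and 189 CPM in those of Si8 (-1.86 ± 0.17, adjusted p = 8.27e-05, edgeR). Btg2, an antiproliferative and immediate early gene, had 857 and 740 CPM in DC, against 304 and 280 CPM in Si8 (1.37 ± 0.15, adjusted p = 0.000206, edgeR). For both genes the tissues were far apart. Dissociation stress genes were higher too, 8 of 13, and summed to 11600 and 8740 CPM in DC cycling-like cells, against 4890 and 4920 CPM in those of Si8. Immune markers summed to 3.72 and 14.2 CPM in DC, against 1170 and 906 CPM in Si8, with the leukocyte gene Ptprc at 6 UMIs, the T cell gene Cd3e at 0 and Epcam at 81469 UMIs over both tissues; 2 of the 16 were at 0. Paneth markers summed to 539 and 622 CPM in DC, against 3270 and 4950 CPM in Si8, and enteroendocrine markers to 16.1 and 22.6 CPM, against 257 and 164 CPM. The part of these differences in the members' values was not tested.

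To follow the program in single cells, every cell with at least 5000 UMIs was thinned to 5000, which left out 490 of the 10243 cells (132 and 182 in DC, 176 and 0 in Si8). A cell was called a mitotic-program cell at 10 or more UMIs over 31 mitotic members, a replication-program cell at 10 or more over the 20 replication members where it was not mitotic, and otherwise a cell of neither program. Mitotic-program cells were 338 of 1699 cells in DC 1 (19.9%, exact Clopper-Pearson 95% interval 18.0 to 21.9) and 870 of 4542 in DC 2 (19.2%, 18.0 to 20.3). They were 114 of 1315 cells in Si8 1 (8.67%, 7.2 to 10.3) and 468 of 2197 in Si8 2 (21.3%, 19.6 to 23.1). Intervals cover counting error only. The DC libraries lay between the 2 Si8 libraries, and the means of 19.5% ± 0.523 in DC and 15% ± 8.93 in Si8 (SD, n = 2 each) did not differ by an exact two-sided permutation test (p = 1). With 2 libraries against 2, that exact permutation test cannot go below p = 0.333. The DC minus Si8 difference was 4.54 points, and -1.78 points without Si8 1. Without thinning they were 18.6% and 18.4% for DC, against 8.25% and 20.7% in Si8, at 2000 CPM and above. Replication-program cells were few, at 1.41% and 2.82% in DC and 1.06% and 3.28% in Si8.

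The gate is a line through a range. From 7 to 9 UMIs there were 37 and 103 cells in DC and 34 and 86 in Si8, and from 10 to 12 there were 26 and 89 for DC libraries and 16 and 75 for those of Si8. The median in mitotic-program cells was 29 and 23 UMIs in DC, against 20 and 21 in Si8. Of the mitotic-program cells, 91.4% and 93.7% in DC and 94.7% and 90.6% in Si8 lay in the cycling-like clusters. Clusters 1 and 8 had been made without the members but were named by them, at 28 and 35 of their 50 top genes. That the program lies in clusters of this name follows in part from the naming. Goblet-like cells made up 6.51% and 4.02% of the mitotic-program cells in DC, against 2.63% and 4.7% in Si8, nearly all in cluster 3. The unthinned depth of mitotic-program cells was higher than that of cells of neither program. Mitotic-program cells had medians of 20585.5 and 18368 UMIs in DC and 27827.5 and 27995 in Si8. Cells of neither program had 13061 and 11572 in DC and 18542 and 19967 in Si8.

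Muc2 was lower in mitotic-program cells than in cells of neither program in all 4 libraries. In DC it had 1320 and 1770 CPM in mitotic-program cells, against 3740 and 4220 CPM in cells of neither program. In Si8 it had 3170 and 2610 CPM in mitotic-program cells, against 10500 and 8230 CPM in cells of neither program. Averaged over the tissues, with library as a block, the log2 fold change was -1.89 ± 0.06 (adjusted p = 2.77e-09, edgeR), in a comparison that called 59.6% of 12590 genes, 28.7% higher and 30.9% lower. The change was -1.50 in DC and -2.28 in Si8, and the DC effect minus the Si8 effect was 0.77 ± 0.11 (adjusted p = 0.00124, edgeR), so the drop was smaller in DC. This difference was called for 17.1% of the genes, 12.5% above and 4.64% below 0. Without Si8 1 that difference was 0.70, and with totals alone 0.31 (adjusted p = 0.0129, edgeR).

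Atoh1 was also lower in mitotic-program cells. In DC it had 257 and 94.3 CPM in mitotic-program cells, against 414 and 197 CPM in cells of neither program. In Si8 it had 106 and 60.6 CPM in mitotic-program cells, against 191 and 134 CPM in cells of neither program. The first DC library stood above the other 3 in both states. The average log2 fold change was -1.30 ± 0.06 (adjusted p = 4.27e-08, edgeR), with -1.0 in DC and -1.59 in Si8, and the difference of 0.59 ± 0.12 passed (adjusted p = 0.00801, edgeR). Its size depends on scaling, since totals alone gave 0.14 and the fit without DC 1 gave 0.42, neither of which passed.

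Muc3 separated the tissues in both of these states. In DC it had 748 and 1140 CPM in mitotic-program cells, against 581 and 999 CPM in cells of neither program. In Si8 it had 148 and 146 CPM in mitotic-program cells, against 132 and 149 CPM in cells of neither program. Levels in DC were well above those in Si8 in both states, while the states lay close together within a library. In goblet-like cells alone the tissues overlapped, with Muc3 at 21.2 and 98.6 CPM in DC, against 89.1 and 57.3 CPM in Si8. Its log2 fold change there, DC over Si8, was -0.78 ± 0.63 (adjusted p = 0.359, edgeR). The log2 fold change between states was 0.15 in DC (adjusted p = 0.0547, edgeR) and -0.53 in Si8 (adjusted p = 5.48e-05, edgeR), and their difference was 0.68 ± 0.08 (adjusted p = 0.00068, edgeR), or 0.22 and not past the threshold with totals alone. The average over tissues was -0.19 ± 0.04, and with totals alone 0.17. The sign of that average therefore turns with the scaling. The median of the whole table moved likewise, at -0.03 under TMM and 0.31 under totals alone in this contrast, and at 0.07 and -0.38 in the tissue difference.

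**Figure D3:**
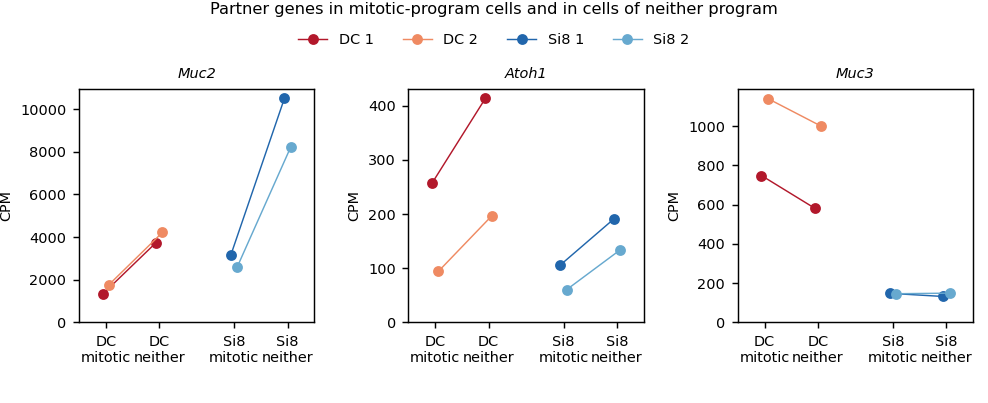
Level of Muc2, Atoh1 and Muc3, in CPM, in mitotic-program cells and in cells of neither program, with 1 line per library. All 4 lines climb toward the cells of neither program for Muc2 and Atoh1, whereas for Muc3 the DC lines lie at 581 to 1140 CPM, and the Si8 lines stay flat at 132 to 149 CPM.

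Inside the mitotic-program cells, Muc2 UMIs were fewer and Muc3 UMIs more in DC than in Si8. Muc2 changed by -0.99 ± 0.20 (adjusted p = 0.00619, edgeR) and Muc3 by 2.60 ± 0.22 (adjusted p = 4.72e-05, edgeR), where 25.6% of 11630 genes were called (14.1% higher, 11.5% lower). Without Si8 1 these were -0.87 and 2.59. The absorptive-led cluster 2 differed the same way, with Muc2 at 2500 and 2300 CPM in DC, against 6310 and 4420 CPM in Si8, and Muc3 at 2430 and 2550 CPM in DC, against 512 and 475 CPM in Si8. Muc2 was higher in cluster 2 than in mitotic-program cells of the same library. Whether cluster 2 cells express Muc2 was not tested, so its tissue difference is not read as one in expression by the mitotic-program cells. Muc3 was higher in cluster 2 too, but it is itself one of the colon absorptive markers, so cluster 2 sets no background for it. In DC, Muc3 had 1310 and 1390 CPM in cycling-like cluster 1, against 23.5 and 209 CPM in cycling-like cluster 8. How much of its tissue difference lies in expression by the mitotic-program cells was not tested. Atoh1 differed by 1.00 ± 0.41 and did not pass (adjusted p = 0.108, edgeR). Without Si8 1 it did (1.41, adjusted p = 0.0086, edgeR), and without DC 1 it had 0.15 and did not. Dissociation stress genes were higher in DC among these cells, 9 of 13, and summed to 11700 and 9020 CPM in DC, against 4600 and 4940 CPM in Si8; their part in these values was not tested.

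The drop in Muc2 with the mitotic program was graded. From cells with 0 to cells with 20 or more mitotic UMIs, the mean thinned Muc2 count in DC 1 ran 24.5, 19.4, 8.06, 7.66 and 7.15 over the bins 0, 1 to 4, 5 to 9, 10 to 19 and 20 or more. In DC 2 it ran 25.8, 23.3, 12.7, 11.1 and 9.94. In Si8 1 it ran 71.2, 53.4, 20.9, 18.3 and 14.8, and in Si8 2 59.8, 43.2, 16.1, 13.9 and 12.8. Every library fell at each step, with the steepest step from 1 to 4 up to 5 to 9 mitotic UMIs, before the gate was reached. Atoh1 had no such common shape: in DC 1 it was detected in 78.9% of cells with 0 mitotic UMIs, 53.8% of those with 10 to 19 and 67.8% of those with 20 or more, whereas in Si8 2 the share was 52.4%, 24.6% and 21.8%. These are cells of 4 libraries and not replicates, so no test is given.

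**Figure D4:**
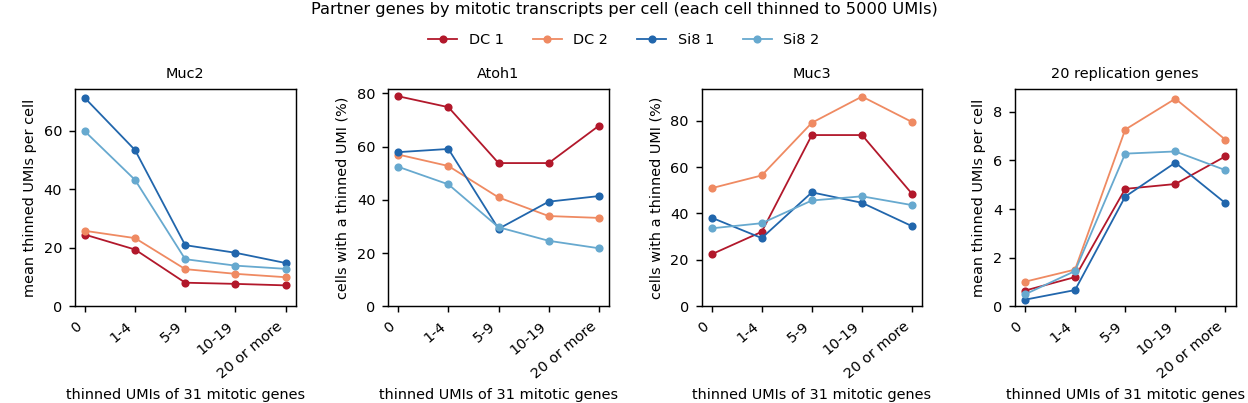
Mean thinned UMIs of Muc2, percent of cells with a thinned UMI of Atoh1 and of Muc3, and mean thinned UMIs of the 20 replication genes, by the number of thinned UMIs of the 31 mitotic genes in a cell, with 1 line per library. Muc2 falls in every library, in DC 1 to 7.15 and in Si8 1 to 14.8 UMIs in the last bin, while the Muc3 share is highest at 10 to 19 mitotic UMIs in DC 2, at 90.4%.

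Muc2-high cells were 48.8% and 56.8% of the mitotic-program cells in DC, against 78.1% and 70.9% in Si8 (means 52.8% ± 5.63 and 74.5% ± 5.04, SD, n = 2 each, exact permutation p = 0.333, the smallest possible). The groups did not overlap. In cells of neither program the shares were 83.5% and 82.3% in DC, against 96.5% and 90.9% in Si8, again without overlap. Over all cells, too, Muc2 was lower in DC (log2 fold change -1.69 ± 0.31, adjusted p = 0.0133, edgeR). The lower share in DC was thus not particular to mitotic-program cells. Without thinning the shares in mitotic-program cells, at 1000 CPM of Muc2, were 44.6% and 55.3% in DC, against 77.2% and 64.5% in Si8. For comparison, in the absorptive-led cluster 2, 69.4% and 60.9% of cells in DC and 85.7% and 72.8% in Si8 passed the same gate at the same thinned depth. The share in mitotic-program cells as a whole was below that of cluster 2 in each library. Whether cluster 2 cells express Muc2 themselves was not tested, so this comparison cannot decide on expression, and the share is not read either way. In cycling-like cluster 8 alone, 56.4% and 74.0% of cells in DC and 94.4% and 90.6% in Si8 passed the gate. These shares lay above those of cluster 2 in every library but DC 1. Median unthinned depths in cluster 2 were 15020 and 13669 UMIs in DC, against 19381 and 24587 in Si8.

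Atoh1 was detected in 64.5% and 33.4% of mitotic-program cells in DC, against 40.4% and 23.1% in Si8. In cells of neither program it was 76.0% and 54.0% in DC and 57.2% and 48.0% in Si8. The share was lower in mitotic-program cells in each library. In cluster 2 it was 45.1% and 27.1% for DC libraries, and 25.7% and 15.4% for those of Si8, so that the mitotic-program share lay above that of cluster 2 in all 4. Without thinning Atoh1 was detected in 89.7% and 64.4% of mitotic-program cells in DC and in 75.6% and 60.6% in Si8.

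The 2 cycling-like clusters differed in these partners, and since they were made without the members, Muc2, Atoh1 and Muc3, their mitotic levels can be set side by side. The 31 mitotic genes summed to 7330 and 5290 CPM in cluster 8 of DC, and to 5330 and 5020 CPM in cluster 8 of Si8. In cluster 1 they summed to 3470 and 3270 CPM for DC libraries and 3180 and 3240 CPM for those of Si8. Cluster 8 was higher in every library, and 91.7% and 78.8% of its cells in DC and 75.0% and 78.8% in Si8 were mitotic-program cells, against 59.3% and 60.9% in cluster 1 of DC and 60% and 63.9% in cluster 1 of Si8. Of all mitotic-program cells, cluster 8 held 42.3% and 24.4% in DC, against 23.7% and 14.3% in Si8. Si8 1 had only 40 cells in cluster 8. Muc2 had 1540 and 2820 CPM in cluster 8 of DC, against 1180 and 1610 CPM in cluster 1. In Si8 it had 4220 CPM in cluster 8 of each library, against 3170 and 2450 CPM in cluster 1. Muc2 was thus higher in cluster 8 than in cluster 1 in every library, yet below cluster 2 in every library but DC 2.

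Atoh1 had 408 and 202 CPM in cluster 8 of DC and 260 and 175 CPM in that of Si8, against 154 and 71.8 CPM in cluster 1 of DC, with 77.1 and 48.7 CPM in that of Si8. Atoh1 was detected in 80.8% and 52.8% of cells in cluster 8 of DC and 66.7% and 58.8% in that of Si8. In cluster 1 the shares were 46.1% and 27.8% for DC libraries and 31.1% and 18.1% for those of Si8, within 6 points of the absorptive-led cluster 2. Whether cluster 2 cells express Atoh1 was not tested, so the cluster 1 shares are not read as expression or as its absence. Muc3 ran the other way: cluster 8 had 23.5 and 209 CPM for DC libraries and 12.4 and 18.9 CPM for those of Si8, against 1310 and 1390 CPM in cluster 1 of DC and 186 and 159 CPM in cluster 1 of Si8. In goblet-like cluster 3 Muc3 was detected in 7.57% and 31.5% of cells in DC and 4.44% and 6.59% in Si8, and in cluster 8 in 7.69% and 41.6% in DC and 8.33% and 14.1% in Si8. Over all 5 goblet-like clusters the Muc3 share ran from 6.37% to 47.5% in DC and from 4.44% to 82.1% in Si8, so cluster 3 sets no background for it. These clusters are described with no test, since clusters were set on the same cells.

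**Figure D5:**
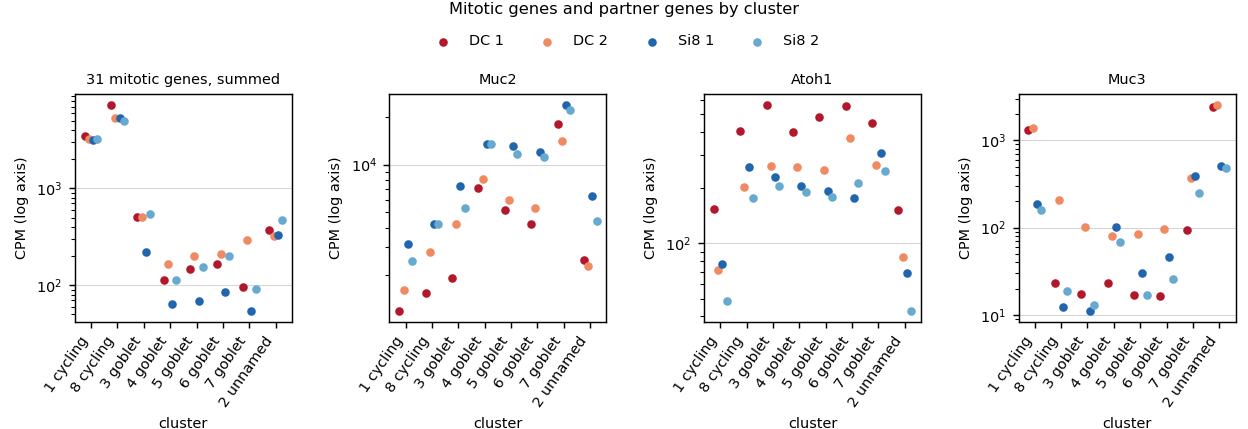
Summed level of the 31 mitotic genes and levels of Muc2, Atoh1 and Muc3, in CPM on log axes, in the 2 cycling-like clusters, the 5 goblet-like clusters and the unnamed cluster 2, with 1 point per library. Both cycling-like clusters, which were named by the members, stand above all others shown in the first panel. Cluster 8 has more Atoh1 and less Muc3 than cluster 1 in every library.

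Both Atoh1 and Muc3 were detected in 26.9% and 24.4% of mitotic-program cells in DC, against 8.77% and 8.55% in Si8 (25.6% ± 1.81 and 8.66% ± 0.159, SD, n = 2 each, exact permutation p = 0.333). Neither gene was detected in 7.99% and 7.47% in DC, against 28.9% and 40.2% in Si8. Within each tissue the 2 libraries lay close together for the first share. Among mitotic-program cells with Atoh1, Muc3 was detected in 41.7% and 72.9% in DC and 21.7% and 37.0% in Si8, against 77.5% and 88.8% of those without Atoh1 in DC and 51.5% and 47.8% in Si8. In each library Muc3 was thus found less often beside Atoh1. Cluster 1, where Atoh1 shares lay near those of cluster 2, held 49.1% and 69.3% of the mitotic-program cells in DC and 71.1% and 76.3% in Si8, and Muc3 was detected in 99.6% and 99.5% of its cells in DC and 50.4% and 49.9% in Si8. Whether Atoh1 is expressed in cluster 1 cannot be told from this, so the joint share is not read as cells expressing both genes.

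Within Muc2-high cells alone, Atoh1 had 255 and 114 CPM in DC mitotic-program cells and 126 and 77.8 CPM in those of Si8. Muc2-high cells of neither program had 434 and 228 CPM in DC libraries and 204 and 150 CPM in those of Si8. It was lower in the mitotic-program cells of all 4 libraries (-1.22 ± 0.05, adjusted p = 6.95e-10, edgeR, where 56.2% of 12170 genes were called, 26.9% higher and 29.3% lower). Muc3 had 770 and 1020 CPM in DC mitotic-program cells, against 417 and 680 CPM in DC cells of neither program, and rose by 0.58 on the log2 scale (adjusted p = 2.08e-05, edgeR). In Si8 it had 135 and 137 CPM in mitotic-program cells, against 124 and 128 CPM in cells of neither program, or -0.46 on the log2 scale after TMM scaling (adjusted p = 0.000262, edgeR). The DC effect minus the Si8 effect was 1.03 ± 0.10 (adjusted p = 5.21e-05, edgeR), or 0.63 with totals alone, a difference called for 15.4% of genes (11.2% above and 4.19% below 0).

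Other genes of the secretory program were lower in mitotic-program cells. Of 20 tested secretory genes, Muc2, Atoh1 and Muc3 among them, 17 were lower and 3 higher. With totals alone 13 were lower and 4 higher, and the sign of Muc3, counted here as lower, turns with the scaling. Zg16, a goblet cell lectin, had 580 and 1000 CPM in DC mitotic-program cells and 6510 and 6140 CPM in those of Si8, against 11200 and 11300 CPM in DC cells of neither program and 66100 and 59000 CPM in those of Si8 (-3.95 ± 0.12, adjusted p = 2.93e-09, edgeR). The 3 higher genes were Notch1 (1.88), the receptor that blocks secretory fate, its target Hes1 (0.47) and Sox4 (1.05). Of 31 goblet markers, 28 were lower and none higher, beside 30.9% of all genes lower. Other lists also had members lower, at 17 of 24 colon absorptive markers, 10 of 21 small-intestinal absorptive markers and 11 of 13 dissociation stress genes, and their part in these counts was not tested. Of 19 stem and progenitor markers, 14 were higher and 2 lower, with Cd44 at 2.03 and Lgr5, the Wnt-responsive stem cell receptor, at 1.57.

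Cell cycle genes outside the gate changed in the same cells. All 42 further mitosis genes were higher, led by Aspm (4.98) and Ckap2l (4.86), which act at the spindle. Of 34 further replication genes, 33 were higher and 1, the uracil glycosylase gene Ung, was lower (-0.34). The members themselves set the gate and are not tested here. Since the gate picks cells by mitotic transcripts, the counts of further mitosis and replication genes largely follow from it and are description only. Of all genes tested, 28.7% were higher. Among the regulators, 20 were higher and 9 lower of 33. Foxm1, a transcription factor of mitotic genes, had 34.9 and 35.3 CPM in DC mitotic-program cells and 22.9 and 23.5 CPM in those of Si8, against 0.552 and 1.62 CPM in DC cells of neither program and 0.797 and 1.44 CPM in those of Si8 (4.19 ± 0.17, adjusted p = 2.03e-08, edgeR). Cdkn1a, the inhibitor p21, fell by 1.92 and Cdkn2b by 1.71 on the log2 scale.

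Mitotic-program cells were then split by whether a UMI of Atoh1 was found at the thinned depth. There were 218 and 291 cells with it in DC and 46 and 108 in Si8. Cells without it numbered 120 and 579 in DC and 68 and 360 in Si8. Without thinning, only 35 and 310 mitotic-program cells in DC and 30 and 179 in Si8 had no Atoh1. Many cells counted as without Atoh1 thus hold it at full depth, and the split separates more from less detected Atoh1. With library as a block, 15 members were higher and 2 lower in the cells with Atoh1, where 12.8% of 10746 genes were called (7.32% higher, 5.45% lower). Cdk1 had 246 and 190 CPM in cells with Atoh1 in DC and 196 and 194 CPM in those of Si8, against 199 and 178 CPM in cells without it in DC and 169 and 155 CPM in those of Si8. It was higher in all 4 libraries (0.26 ± 0.05, adjusted p = 0.000311, edgeR). H2afz, a histone variant, had 1880 and 1760 CPM in cells with Atoh1 in DC and 1690 and 1780 CPM in those of Si8, against 1510 and 1540 CPM in cells without it in DC and 1630 and 1630 CPM in those of Si8 (0.20 ± 0.03, adjusted p = 5.61e-05, edgeR). It too was higher in all 4.

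By role, the histone and chromatin genes had 6 of 7 higher, mitotic control 4 of 13 and chromosome and spindle 4 of 20, while replication had 1 higher and 2 lower of 20. Spc25 had the largest rise (0.38), and Mki67 rose by 0.15 (adjusted p = 0.0285, edgeR). The 2 lower members were Cdt1, the licensing factor of replication origins (-0.46, adjusted p = 0.00531, edgeR), and Hells, a chromatin remodeller (-0.29, adjusted p = 0.0178, edgeR). Top2a (0.04) and Pcna (0.07) did not pass. Dissociation stress genes were called more often still, with 9 higher and 2 lower of 13, and their part in the members' values was not tested. All these changes were small, with a median of 0.09 over the members against -0.02 over all genes, and the count depends on the fit: DESeq2 called 4 higher, keeping the removed doublets left 6 higher and 2 lower, and without Si8 1 there were 13 higher and 1 lower. With totals alone there were 8 higher and 3 lower, without DC 1 there were 5 and 2, and without Si8 2 there were 5 and 1.

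In the same split Muc2 had 1450 and 2150 CPM in cells with Atoh1 in DC and 4100 and 3790 CPM in those of Si8, against 1100 and 1590 CPM in cells without it in DC and 2600 and 2290 CPM in those of Si8 (0.58 ± 0.03, adjusted p = 1.44e-15, edgeR). Muc2 was higher with Atoh1 in all 4 libraries, and the rise was smaller in DC, with a DC minus Si8 difference of -0.32 ± 0.06 (adjusted p = 0.00358, edgeR; -0.27 and not past the threshold without Si8 2), where such a difference was called for 1.85% of genes (0.223% above and 1.63% below 0). Muc3 had 524 and 812 CPM in cells with Atoh1 in DC and 103 and 101 CPM in those of Si8, against 1130 and 1290 CPM in cells without it in DC and 175 and 158 CPM in those of Si8 (-0.75 ± 0.06, adjusted p = 2.46e-11, edgeR). Dll1, the Notch ligand of secretory progenitors, rose by 0.89 and Gfi1, a secretory transcription factor, by 0.90, while Hes1 fell by 0.49 and Notch1 by 0.69. Ccnd1 fell by 0.41. Of 31 goblet markers, 27 were higher, beside 7.32% of all genes. Atoh1 is on that list, and the split itself fixed its result.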

How the data were processed

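The deposited values are counts of UMIs by gene and barcode, made by the authors in Cell Ranger 2.1.1 against mm10, per the submitters' processing notes; no source names the annotation version, and coordinates are from GENCODE M21 (GRCm38). No normalization had been applied. Barcodes under 500 genes or above 20% mitochondrial UMIs were dropped, leaving 10522 of 10827. The Scrublet threshold marked 0.171%, so the 279 highest scores, 0.8% per 1000 cells, were removed. Clusters came from 2000 variable genes, without members, listed genes or mitochondrial genes, 30 principal components, 5 neighbours per library and Leiden at resolution 1.0 (scanpy 1.11.5, leidenalg 0.10.2). A cluster was named from at least 3 markers among its 50 top genes, unless its first 10 favoured another class.

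UMIs were summed per library and tested with edgeR 4.0.16 (R 4.3.3; TMM, filterByExpr with a minimum count of 10, quasi-likelihood, Benjamini-Hochberg over all tested genes); DESeq2 1.42.0 was an alternative. In simulated data, edgeR recovered 48% of genes changed 2-fold and 92% of those changed 4-fold in the 13081 genes of the all-cell comparison. CPM use library totals, so folds are shifted against CPM ratios: the median log2 fold change over all genes was 0.04 with TMM and 0.56 with totals alone in goblet-like cells, 0.04 and 0.44 in Muc2-high cells, 0.03 and 0.12 in cycling-like cells and 0.03 and 0.13 in mitotic-program cells. Members and lists were chosen with earlier results of these data known. Named with statistics were, per role, the 2 called members with the largest change in each direction, and Mki67, Top2a, Pcna, Mcm2, Ccnb1 and Cdk1; in other lists, the 2 called genes with the largest change in each direction. Others named were chosen after their values were seen. The comparison in cycling-like cells, the split by Atoh1, the goblet-like counts without a cluster and the alternatives to the tissue differences within Muc2-high cells and the split were added after seeing the data. Alternatives were other scaling, filters, gates, thinning, doublets kept, a block and leaving out each library.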

Additional observations from a re-analysis of the deposited data

Results flagged for a closer look

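Changes in partner genes between gated groups of cells differed between the tissues under TMM scaling, and fewer of them did with totals alone. What causes these changes was not tested. For mitotic-program cells minus cells of neither program, the DC effect minus the Si8 effect on the log2 scale was 0.77 for Muc2 (adjusted p = 0.00124, edgeR), 0.59 for Atoh1 (adjusted p = 0.00801, edgeR) and 0.68 for Muc3 (adjusted p = 0.00068, edgeR). Within Muc2-high cells the same difference was 0.36 for Atoh1 (adjusted p = 0.037, edgeR) and 1.03 for Muc3 (adjusted p = 5.21e-05, edgeR). That for Atoh1 depended on the fit: it was -0.05 with totals alone (adjusted p = 0.772, edgeR), and it did not pass without DC 1 (0.28), without DC 2 (0.45), without Si8 2 (0.25) or in DESeq2 (0.32). For mitotic-program cells with Atoh1 minus those without, it was -0.32 for Muc2 (adjusted p = 0.00358, edgeR), and -0.27 without Si8 2, where it did not pass. Each is an interaction term over 2 DC and 2 Si8 libraries. TMM factors differed between the states more in Si8 than in DC, at 1.17 and 1.14 for mitotic-program cells and 1.05 and 1.07 for cells of neither program in DC, against 1.12 and 1.09 for mitotic-program cells and 0.728 and 0.746 for cells of neither program in Si8. With totals alone the differences between mitotic-program cells and cells of neither program were 0.31 for Muc2 (adjusted p = 0.0129, edgeR), 0.14 for Atoh1 and 0.22 for Muc3, and only that of Muc2 passed. In Muc2-high cells Muc3 had 0.63 (adjusted p = 0.000553, edgeR), and in the split by Atoh1 Muc2 had -0.27 (adjusted p = 0.0172, edgeR).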

How the results depend on the processing

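The 2 libraries per tissue limit every comparison, and Si8 1 and Si8 2 differed in their share of dividing cells by more than the tissues did. Counts of members called moved with the libraries: leaving out each library in turn gave 0 to 28 calls in all cells, 3 to 24 in goblet-like, 1 to 24 in Muc2-high and 0 to 17 in cycling-like cells, and 6 to 16 in the split by Atoh1. With library totals alone the counts were 12 in all cells, 20 in goblet-like cells, 4 in Muc2-high cells and 11 in the split by Atoh1. Without the filter on low counts they were 8 in all cells, 16 in goblet-like cells, 2 in Muc2-high cells and 13 in cycling-like cells. DESeq2 gave 2 in all cells, 5 in cycling-like cells and 4 in the split by Atoh1. Thinning to 5000 UMIs gave 2 in cycling-like cells. In the split by Atoh1, 8 were called with doublets kept and 9 without the 5% of cells with most UMIs. All of these are bare counts, given without the share of all genes called in the same fit. They are not read as a change in the program. Why the counts moved was not tested.

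Replicate numbers were the same in both tissues, but nothing in the labels ties them, and the deviations of same-numbered libraries correlated at 0.131 over all cells, 0.102 in goblet-like cells and 0.134 in cycling-like cells, over 2 pairs. With the replicate number as a block the calls were 3 in all cells, 14 in goblet-like cells, 6 in Muc2-high cells and 15 in cycling-like cells. Under the block, Atoh1 in mitotic-program cells had 0.85, Mcm2 in Muc2-high cells 0.04 and Ccnb1 in cycling-like cells -0.01.

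Among the partner genes, the log2 fold change of Muc3 between mitotic-program cells and cells of neither program was 0.17 with totals alone, -0.08 with the gate at 5 UMIs, and -0.22 to -0.16 with a library left out. The tissue difference of this change had 0.14 for Atoh1 and 0.22 for Muc3 with totals alone, and 0.42 to 0.75 for Atoh1 with a library left out. Atoh1 in mitotic-program cells, DC over Si8, was 1.03 without the filter and 0.15 to 1.54 with a library left out. The tissue difference of Atoh1 in Muc2-high cells was -0.05 with totals alone. Muc3 in Muc2-high cells had 0.42 with totals alone, -0.17 at a gate of 20 UMIs, 0.15 at a gate of 5 and -0.01 to 0.12 with a library left out.

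Members that did not pass changed sign easily. Without cluster 3, Ccnb1 in goblet-like cells had 0.39. With totals alone, Mcm2 had 0.31 in all cells and 0.37 in Muc2-high cells, Mki67 and Cdk1 had 0.47 each and Ccnb1 0.33 in goblet-like cells, and Top2a had 0.33 and Ccnb1 0.16 in Muc2-high cells. With thinning, Mki67 and Cdk1 had 0.06 and 0.02 in goblet-like cells, and Cdk1 had -0.15 in Muc2-high cells. DESeq2 gave -0.01 for Pcna in cycling-like cells. With a library left out, the ranges over all cells were -0.24 to 0.56 for Top2a, -0.04 to 0.42 for Pcna, -0.53 to 0.59 for Mcm2, -0.14 to 0.48 for Ccnb1 and -0.03 to 0.74 for Cdk1. In goblet-like cells they were -0.39 to 0.42 for Mki67, -0.69 to 0.62 for Ccnb1 and -0.42 to 0.49 for Cdk1. In Muc2-high cells they were -0.07 to 0.82 for Mki67, -0.42 to 0.41 for Top2a, -0.01 to 0.33 for Pcna, -0.44 to 0.67 for Mcm2, -0.54 to 0.16 for Ccnb1 and -0.30 to 0.55 for Cdk1. In cycling-like cells they were -0.02 to 0.10 for Top2a, -0.09 to 0.11 for Pcna, -0.57 to 0.03 for Mcm2 and -0.29 to 0.30 for Ccnb1. The DC minus Si8 difference in the share of mitotic-program cells ran from -1.78 to 10.9 points with a library left out. That of replication-program cells ran from -1.16 to 1.05, and was 1.28 with the gate at 5 UMIs and 0.0318 with another random seed. The other 206 recomputed values that answer a comparison kept their direction and side of the threshold, or, for counts, stayed within 1.5 times of the reported one.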
